A study of Mus musculus with 10 samples.

Results

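Messenger RNA of 10 target genes of the transcription factor p53 was followed across mouse progenitors induced from pericytes, primary oligodendrocyte progenitor cells and pericytes. The genes, taken from a fixed list of symbols, were Mdm2, Ccng1, Btg2, Sesn2, Gdf15, Phlda3, Perp, Pmaip1, Bbc3 and Bax. Every probe that carried one of these symbols was used. The array named 8 of the 10 genes, through 17 of its 25697 probes, and no probe carried the symbol Bax or Gdf15, which were not analysed here. All 17 probes passed a filter on dim probes that 14539 probes passed (2 or more arrays with a detection p-value below 0.01). With 1 probe per gene, the 8 genes stood among 9778 genes tested. Perp was above background on the PC arrays alone, so it passed the filter only where it was high.

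p53 is a stress sensor that binds DNA as a tetramer and switches on genes of cell cycle arrest, cell death, repair and metabolism. Its own level is held down by Mdm2, which is itself a p53 target, so that the pathway contains a feedback loop. In the oligodendrocyte lineage p53 and its targets are known from studies of differentiation and of progenitor survival, and cultured cells often carry p53 activity as a response to growth in a dish. The p53 protein was not measured here, and its gene, Trp53, had no probe under that symbol and was not analysed here.

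Cells of the mouse strain C57BL/6 were hybridised to Illumina bead arrays, 10 in all and 2 for each of 5 titles. They hold progenitors induced from pericytes at passages 5, 15 and 25 (iOPC p5, p15 and p25), primary oligodendrocyte progenitor cells (OPC) and pericytes (PC), the contractile cells of small vessels. The titles call the primary cells OPC, while their cell type label reads oligodendrocyte. The labels name no factor or medium behind the induction, give no age or sex of the mice, and leave out whether replicate arrays come from separate cultures. The p-values thus measure only the spread between these arrays. A kit with an extra round of amplification is mentioned for sorted, transplanted cells, and whether it was used for these arrays is not stated.

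Each array has an entry in 2 deposited tables, a signal table with detection p-values and a table of log2 values, and these did not match under all headings. Over 9403 probes detected on every array, the PC columns correlated at a mean r of 0.982 between the tables. The signal columns headed iOPC p15, however, correlated at 0.981 with the value columns headed OPC and at 0.843 with the value columns headed iOPC p15. The like-named OPC, iOPC p5 and iOPC p25 columns reached 0.847, 0.878 and 0.866. Headings other than PC are therefore uncertain, no column was reassigned, and both tables are reported with their own headings. A comparison that needs only the PC heading is the firmest one the tables allow.

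Between 45.7% and 49.2% of all probes were detected on an array, and the mean signal was lowest on the iOPC p25 arrays (299 and 268, against 333 to 388 elsewhere). Of 7 OPC markers with a probe, 5, 7 and 6 were detected on both iOPC arrays at passages 5, 15 and 25, 5 on both OPC arrays and 2 on both PC arrays. Olig1, Gpr17 and Bcan were detected on none of the PC arrays. Of 8 pericyte markers, Rgs5, Abcc9 and Des were detected on no array, Anpep on both PC arrays alone, Pdgfrb on both PC arrays and 1 OPC array, Kcnj8 on 1 OPC array alone, and Acta2 and Mcam on all 10. In the signal table Mcam was higher than in PC, by 3.17 log2 units in iOPC and 5.25 in OPC, and the summed pericyte markers were 561 to 1979 on iOPC arrays, 2937 to 3208 on OPC arrays and 2880 to 2931 on PC arrays. Summed fibroblast markers, on the normalised linear scale, reached 3328 to 3377, 533 to 556 and 2149 to 2282 on iOPC arrays at passages 5, 15 and 25, 7969 to 8664 on OPC arrays and 9257 to 10943 on PC arrays. Of 5 endothelial markers with a probe, Flt1 was detected on all 10 arrays, Cdh5 on 1 PC array alone, and Pecam1, Kdr and Tek on none. The endothelial sum was 106 to 299 on iOPC arrays, 132 to 146 on OPC arrays and 1704 to 1739 on PC arrays. The 4 microglial markers with a probe were detected on no array. Fewer cells of a type and less RNA per cell cannot be told apart in such bulk samples.

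The first comparison asked how the induced cells differ from the pericytes they were made from. By the signal table, 7 of the 8 p53 targets fell in iOPC (the mean of the 3 passages) against PC and none rose, and by the value table all 8 fell. Over all genes tested 34.1% fell and 42.2% rose in the signal table, and 26.8% fell and 33% rose in the value table (limma, adjusted p under 0.05 over all genes). The median log2 change of the 8 genes was -1.34 in the signal table and -2.27 in the value table, beside 0.08 in both for all genes. Perp had to differ because of the filter, and these counts and medians include it.

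Without the use of any heading but PC, 5 genes lay below both PC columns in all 8 other columns of both tables. These were Mdm2, Ccng1, Pmaip1, Phlda3 and Perp, of which Perp passed the filter only through the PC arrays. The same was true of 1431 of 9778 genes, or 14.6%, while 1446 genes (14.8%) and none of the p53 targets lay above both PC columns throughout. Btg2 lay below PC in all 8 other value columns and in 6 signal columns, with the 2 OPC signals above. Sesn2 lay below PC in 6 and above it in 2 columns of each table. Bbc3 lay below PC in 6 columns of each table, with the 2 iOPC p15 signals within the PC range and the 2 iOPC p5 values above PC. The sums of fibroblast and of endothelial markers were also highest on the PC arrays, as given above. Within them the fibroblast marker Lum was detected on both p5, p25 and OPC arrays and on no PC array, and Flt1 was the only endothelial marker detected on both PC arrays. Their part in the p53 target levels was not tested.

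**Figure D1:**
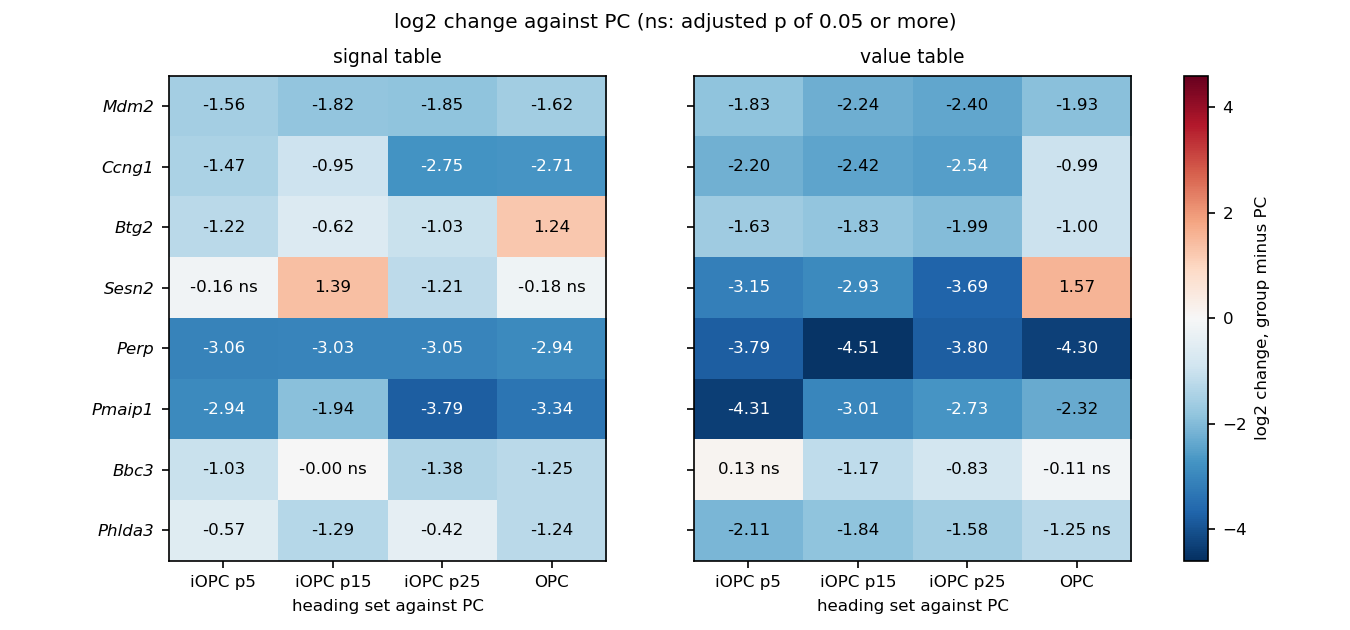
Fitted log2 change of each p53 target against PC, as colour and number, for the 3 iOPC headings and the OPC heading (columns), in the signal table (left) and the value table (right); ns marks an adjusted p of 0.05 or more. Mdm2, Ccng1, Perp, Pmaip1 and Phlda3 are blue in all 8 cells, with Phlda3 ns at OPC in the value table. Sesn2 is red at iOPC p15 in the signal table (1.39) and at OPC in the value table (1.57).

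Mdm2 (chr10:117688875-117710758 on GRCm38.p6) encodes the ubiquitin ligase that marks p53 for degradation. In the signal table, normalised log2 signals were 10.09 and 10.12 on iOPC p5 arrays, 9.81 and 9.87 at p15, 9.88 and 9.76 at p25, 10.02 and 10.08 on OPC arrays, and 11.72 and 11.61 on PC arrays. The 8 arrays of the other groups spanned 0.36 log2 units and none overlapped PC. The value table held 10.48 and 10.16 at p5, 10.13 and 9.71 at p15, 9.78 and 9.74 at p25, 10.18 and 10.26 in OPC, and a mean of 12.16 ± 0.21 in PC (SD, n = 2), again without overlap. Mdm2 fell in iOPC against PC by 1.74 ± 0.07 on the log2 scale (SE, a 3.35-fold lower level, adjusted p = 2.44e-09), with a value-table change of -2.16 ± 0.16 (adjusted p = 1.64e-05). Its log2 changes against PC by heading were -1.85 to -1.56 in the signal table and -2.40 to -1.83 in the value table. Mdm2 had the narrowest spread of changes among headings of the signal table after Perp.

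Ccng1 (chr11:40748552-40755309) encodes cyclin G1, which recruits the phosphatase PP2A to Mdm2. The 250 bases before the start of its promoter window are shown because they hold the closest match to the p53 consensus element among the 6 p53 targets with both a probe and a window, in capitals (RefSeq, GRCm38.p6, chr11:40755287-40755536, minus strand).
Ccng1: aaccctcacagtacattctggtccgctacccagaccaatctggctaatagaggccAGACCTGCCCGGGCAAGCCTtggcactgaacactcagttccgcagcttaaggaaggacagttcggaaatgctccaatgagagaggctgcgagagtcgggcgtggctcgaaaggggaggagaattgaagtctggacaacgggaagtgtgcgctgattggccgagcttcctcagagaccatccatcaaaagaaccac
The element is a run of 20 bases, made of a 10-base half-site given again with no spacer, and reads alike on both strands, so reading 1 strand covers both. The C and G of each core were kept. The Ccng1 match has 1 mismatch. It starts 195 bases before the start used for the window and 172 bases before the outermost end of the gene span given above, so that the last 23 bases shown lie within that span. A match with at most 1 mismatch is held by 22 of 32851 promoter windows (250 bases before to 50 after a start), or 0.067%, whereas the C and G of the cores alone are held by 69.6%. A match describes letters only and is not evidence of binding.

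Ccng1 log2 signals were 10.99 and 10.86 on iOPC p5 arrays, 11.44 and 11.47 at p15, 9.63 and 9.68 at p25, 9.80 and 9.59 on OPC arrays, and 12.45 and 12.36 on PC arrays. The first 8 of these lie below PC, and the passages do not overlap each other. Its log2 change in iOPC against PC was -1.72 ± 0.08 in the signal table (adjusted p = 8.78e-09) and -2.39 ± 0.17 in the value table (adjusted p = 1.15e-05). By heading of the signal table it lay between -2.75 (p25) and -0.95 (p15). The value table held 10.81 and 10.36 at p5, 10.50 and 10.24 at p15, 10.42 and 10.08 at p25, 11.90 and 11.69 in OPC, and 12.80 and 12.78 in PC. There OPC stood between iOPC and PC, with a change against PC of -0.99 ± 0.21 in OPC and of -2.54 to -2.20 under the iOPC headings.

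Btg2 (chr1:134074865-134079155) encodes an antiproliferative protein that binds the CCR4-NOT deadenylase. It was dim, with log2 signals of 4.41 and 4.40 on iOPC p5 arrays, 5.20 and 4.80 at p15, 4.69 and 4.50 at p25, 6.79 and 6.94 on OPC arrays, and 5.46 and 5.79 on PC arrays. The p5 and p25 arrays did not detect it, the p15 arrays lay just below PC, and the OPC arrays stood above all others. Against PC it was at least 1.74-fold lower at p5 (adjusted p = 3.47e-05) and at least 1.62-fold lower at p25 (adjusted p = 0.000105). At p15 it fell by 0.62 ± 0.15 log2 units (adjusted p = 0.00304), and in OPC it was 2.36-fold higher than in PC (adjusted p = 3.1e-05). Without background correction the log2 changes were smaller, at -0.36 (p5), -0.30 (p25) and 0.58 (OPC). The value table had Btg2 lower in OPC than in PC, by 1.00 ± 0.17 log2 units (adjusted p = 0.00143), with values of 2.38 and 2.32 in OPC and 3.29 and 3.41 in PC. The direction of Btg2 in OPC thus differed between the tables, whose OPC columns did not match.

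**Figure D2:**
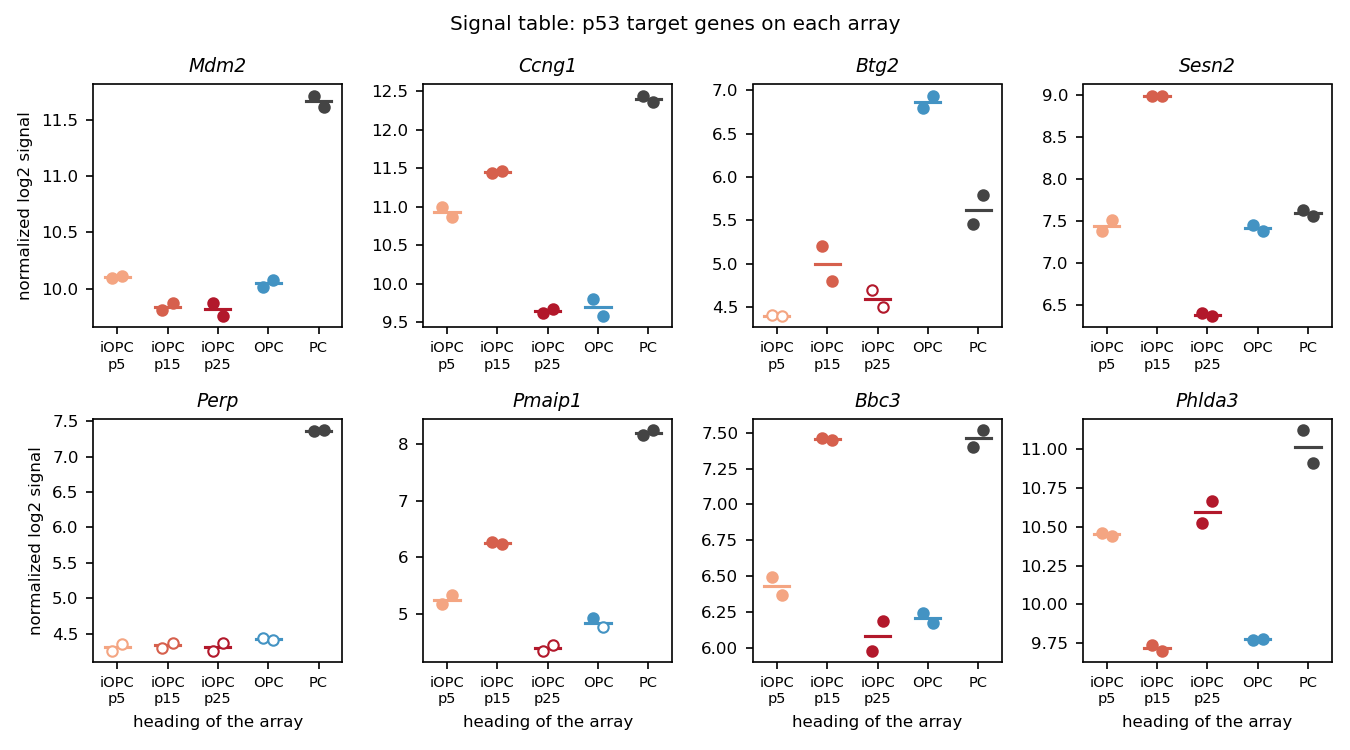
Normalised log2 signal (y axis, scaled for each gene) of the 8 p53 targets on each array, by heading; points are arrays, lines group means of 2 arrays, and open points were not detected. PC points stand above all others for Mdm2, Ccng1, Perp, Pmaip1 and Phlda3, and iOPC p15 points stand highest for Sesn2.

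The death genes were Perp, Pmaip1 and Bbc3. Perp (chr10:18845071-18857073) encodes a tetraspan membrane protein of desmosomes that p53 uses in apoptosis. Its raw signals were 101 and 104 on iOPC p5 arrays, 107 and 108 at p15, 93.2 and 93.2 at p25, 103 and 108 on OPC arrays, and 265 and 247 on PC arrays. Perp was detected on both PC arrays and on none of the other 8 arrays. Relative to PC it was at least 5.82-, 5.96- and 5.40-fold lower at iOPC p5, p15 and p25, and at least 5.90-fold lower in OPC (adjusted p between 1.2e-10 and 2.85e-10). Perp passed the filter only through the PC arrays and had to differ, so these p-values do not test its fall. Without background correction its log2 changes were -1.29, -1.27, -1.28 and -1.24 at those headings. The value table, which has no detection calls, held 2.16 and 2.67 at p5, 1.92 and 1.46 at p15, 2.65 and 2.18 at p25, 2.42 and 1.40 in OPC, and 6.08 and 6.33 in PC. The log2 differences from PC were -3.79, -4.51, -3.80 and -4.30 there.

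Pmaip1 encodes Noxa, a BH3-only protein that binds Mcl1. Its log2 signals were 5.17 and 5.34 on iOPC p5 arrays, 6.28 and 6.24 at p15, 4.36 and 4.46 at p25, 4.93 and 4.77 on OPC arrays, and 8.16 and 8.24 on PC arrays. No group overlapped PC, and the p25 arrays and 1 of 2 OPC arrays did not detect it. Pmaip1 was 7.67-fold lower at p5, 3.84-fold lower at p15 and at least 9.62-fold lower at p25 than in PC, with adjusted p between 1.04e-10 and 1.34e-08. Without background correction the log2 changes were -1.61, -1.22 and -1.84 at the 3 passages. It also fell at all 4 headings of the value table, with log2 changes of -4.31 (p5), -3.01 (p15), -2.73 (p25) and -2.32 (OPC), each ± 0.53. The 2 iOPC p5 arrays of that table stood apart, at 3.16 and 5.01, and these columns also had the lowest replicate correlation of the table (0.962, against 0.988 to 0.994).

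Bbc3 (chr7:16308398-16318334) encodes Puma, a BH3-only protein that binds all pro-survival BCL2 proteins. Near 1 of its annotated starts lies the other close match to the p53 element, shown for comparison with Ccng1 (capitals, with 5 bases on each side, chr7:16309481-16309510, plus strand, RefSeq, GRCm38.p6).
Bbc3: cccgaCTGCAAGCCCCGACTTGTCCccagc
It has 3 mismatches and starts 97 bases before that start, and 453 promoter windows (1.38%) hold a match with at most 3. That start lies 1185 bases inside the gene span given above, so this match lies within the span, unlike that of Ccng1. With the C and G of each core kept, the closest matches in the windows of Phlda3, Btg2, Mdm2 and Sesn2 had 5, 7, 9 and 9 mismatches. Bases outside the windows were not searched, and no window of Perp or Pmaip1 was used here.

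Bbc3 differed from PC under some headings only, and these were not the same in the tables. Log2 signals were 6.49 and 6.37 on iOPC p5 arrays, 7.46 and 7.45 at p15, 5.98 and 6.19 at p25, 6.24 and 6.17 on OPC arrays, and 7.40 and 7.52 on PC arrays. The p15 arrays lay within the range of PC, and the others lay below it. Bbc3 was 2.04-fold lower at p5 (adjusted p = 3.94e-06) and 2.60-fold lower at p25 (adjusted p = 2.95e-07) than in PC, while the p15 difference was -0.00 ± 0.09 log2 units (adjusted p = 0.972). Without background correction the p25 change was -0.77 log2 units. By the value table, Bbc3 was lower than PC at p15 (-1.17 ± 0.28, adjusted p = 0.00952) and p25 (-0.83 ± 0.28, adjusted p = 0.039). There the differences at p5 (0.13 ± 0.28, adjusted p = 0.725) and in OPC (-0.11 ± 0.28, adjusted p = 0.761) did not pass. Its call for the mean of the passages (-0.62 ± 0.23, adjusted p = 0.0475) was made in 6 of 18 alternatives and was lost without either PC, OPC, iOPC p5 or iOPC p25 array (adjusted p up to 0.191). The p25 call was made in 11 of 18, and was lost without either PC, OPC or iOPC p25 array (adjusted p up to 0.176).

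**Figure D3:**
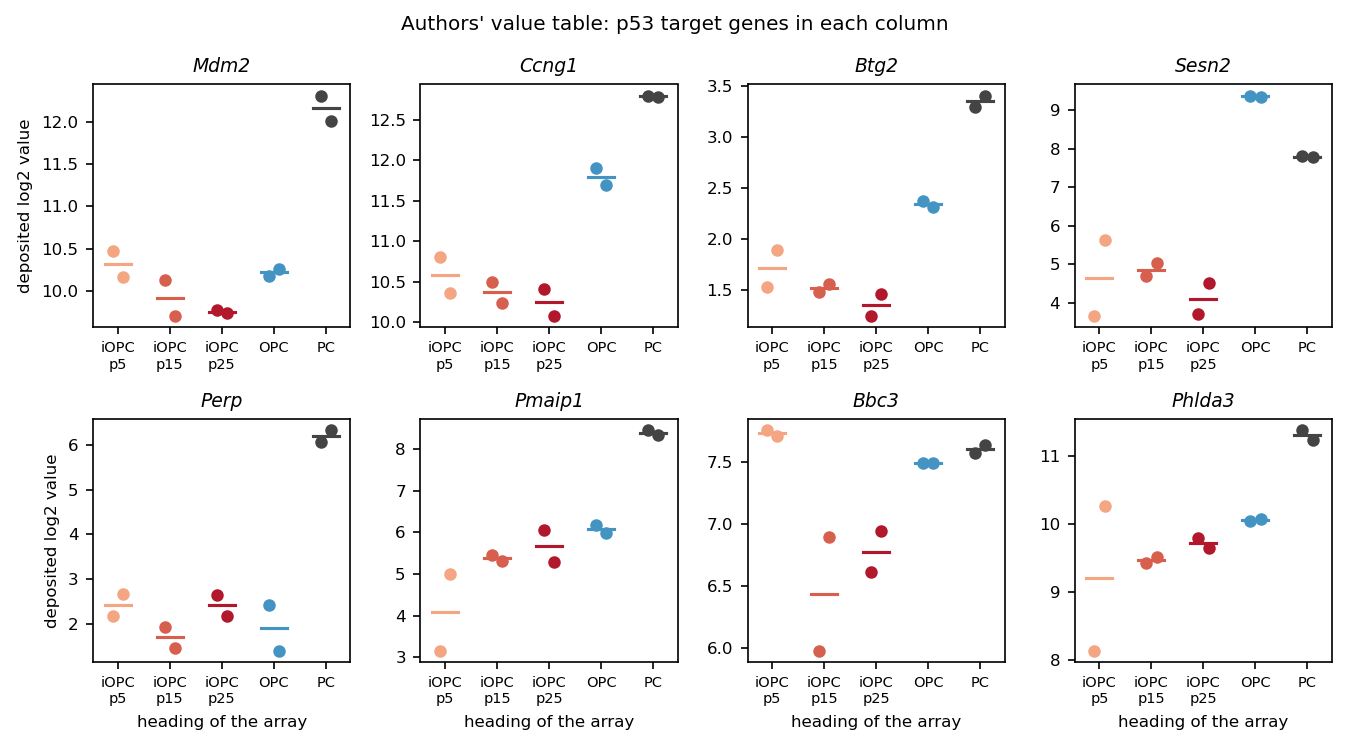
Deposited log2 value (y axis, scaled for each gene) of the 8 p53 targets in each column of the value table, by heading; points are arrays and lines group means of 2 arrays. The OPC columns hold the highest Sesn2 values (9.38 and 9.34), and the 2 iOPC p5 columns lie far apart for Pmaip1, Sesn2 and Phlda3.

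Sesn2 (chr4:132492804-132510456) encodes sestrin 2, a leucine sensor that restrains mTORC1 and is also a target of the stress factor ATF4. Log2 signals were 7.38 and 7.51 on iOPC p5 arrays, 8.99 and 8.99 at p15, 6.40 and 6.37 at p25, 7.46 and 7.38 on OPC arrays, and 7.64 and 7.56 on PC arrays. The p15 arrays lay above and the p25 arrays below all others. Against PC, Sesn2 rose 2.62-fold at p15 (adjusted p = 5.86e-08) and was 2.32-fold lower at p25 (adjusted p = 2.15e-07). At p5 and in OPC the differences of -0.16 ± 0.08 and -0.18 ± 0.08 log2 units did not pass (adjusted p = 0.104 and 0.0655).

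The value table had the rise under another heading. Sesn2 values were 3.66 and 5.62 at iOPC p5, 4.69 and 5.03 at p15, 3.71 and 4.50 at p25, 9.38 and 9.34 in OPC, and 7.80 and 7.78 in PC. The OPC columns were above PC and the 6 iOPC columns below it, with no overlap. Sesn2 fell at each iOPC heading, with log2 changes of -3.69 to -2.93, and was 2.96-fold higher in OPC than in PC (adjusted p = 0.0458). That OPC call was lost when any 1 array of PC, OPC, iOPC p15 or iOPC p25 was left out (adjusted p between 0.0538 and 0.138). The signal columns headed iOPC p15 and the value columns headed OPC, which correlated best with each other, gave like changes against PC for most p53 targets: 1.39 and 1.57 for Sesn2, -0.95 and -0.99 for Ccng1, -1.29 and -1.25 for Phlda3, and -0.00 and -0.11 for Bbc3. On these signal columns the summed astrocyte markers were 6082 to 6268, against 1026 to 2572 on the other iOPC arrays, 1157 to 1346 on OPC arrays and 159 to 172 on PC arrays. Aqp4 and Slc1a2 were detected on no other array and Gfap was not detected on them. The summed neuron markers were 4664 to 4699 on them, against 461 to 1066 on the other iOPC arrays, 809 to 818 on OPC arrays and 157 to 167 on PC arrays. Dcx was detected on these 2 arrays alone, and Rbfox3 and Snap25 on no array. The part of these markers in the Sesn2 level was not tested.

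Phlda3 (chr1:135766085-135769134) encodes a pleckstrin-homology protein that competes with Akt for membrane lipids and so restrains survival signalling. Log2 signals were 10.46 and 10.44 on iOPC p5 arrays, 9.74 and 9.70 at p15, 10.52 and 10.66 at p25, 9.77 and 9.78 on OPC arrays, and 11.12 and 10.91 on PC arrays. PC was highest without overlap, and the p15 arrays lay beside OPC. Phlda3 fell against PC by 0.57 ± 0.09, 1.29 ± 0.09 and 0.42 ± 0.09 log2 units at p5, p15 and p25 and by 1.24 ± 0.09 in OPC, with adjusted p between 3.15e-07 and 0.00164. The value table gave log2 changes of -2.11, -1.84 and -1.58 at the 3 passages, each ± 0.56 (adjusted p = 0.0145, 0.0261 and 0.0457). The p5 call was lost without either PC array (adjusted p = 0.0661 and 0.0541) and with only the compared groups fitted (0.0873). The p15 call was lost without either PC or either iOPC p15 array (adjusted p between 0.0817 and 0.101), and the p25 call was made in 6 of 18 alternatives (adjusted p up to 0.151 on leaving out an array). For the mean of the passages (-1.84 ± 0.46, adjusted p = 0.0094) the call was lost without either PC array (adjusted p = 0.0652 and 0.0509). The OPC difference of -1.25 ± 0.56 did not pass (adjusted p = 0.0946). The iOPC p5 columns lay apart, at 8.13 and 10.26, and without either of them the OPC call was made (adjusted p = 0.000132).

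Set by passage, 7 of 8 p53 targets fell against PC at p5 in the signal table and none rose (30.7% and 35.7% of all genes). At p15, 6 fell and 1 rose (33.7% and 40.3%), and at p25 all 8 fell and none rose (35.7% and 36.8%). The value table had 7, 8 and 8 lower at the same passages, beside 24.1%, 24.5% and 24.3% of all genes, and none higher, beside 30.2%, 29% and 29.1%. These 3 comparisons share the PC arrays, and each count of lower genes includes Perp, which passed the filter only through those arrays.

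Primary OPC were then compared with pericytes. By the signal table, 6 p53 targets fell and Btg2 rose, beside 32.8% of all genes lower and 35% higher. By the value table, 5 fell and Sesn2 rose, beside 25.8% lower and 30.6% higher. Mdm2, Ccng1 and Pmaip1 fell in both tables, as did Perp, which passed the filter only through the PC arrays. The fall of Pmaip1 was 10.2-fold in the signal table and 4.98-fold in the value table, and that of Ccng1 was 6.52-fold and 1.98-fold. Pmaip1 was not detected on the second OPC array, so its signal-table fold depends on the background level. The signal-table log2 change of Pmaip1 ran from -3.42 to -1.72 over the alternatives.

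Induced cells were also set against primary OPC. Mdm2 differed by -0.13 ± 0.07 log2 units in iOPC against OPC in the signal table (adjusted p = 0.127) and by -0.22 ± 0.16 in the value table (adjusted p = 0.285). Perp was below background on all arrays of both. Of the others, Ccng1, Pmaip1, Bbc3, Phlda3 and Sesn2 were higher in iOPC than in OPC by the signal table and Btg2 was lower (5 and 1 genes, beside 31.1% and 25.7% of all genes). Ccng1 was 1.98-fold higher in iOPC (adjusted p = 2.35e-06), with p5 and p15 above OPC and p25 overlapping it. Btg2 was 4.59-fold lower in iOPC (adjusted p = 1.8e-07), without overlap. The p5 and p25 arrays did not detect Btg2, so this fold depends on the background level. Its log2 change ran from -2.37 to -0.87 over the alternatives. The value table had Ccng1, Sesn2 and Btg2 lower in iOPC and none higher (26.9% and 28.4% of all genes). Ccng1 was 2.63-fold lower there (adjusted p = 0.000286), so its direction between iOPC and OPC turned with the table. The signal table's Sesn2 call was lost without either OPC array (adjusted p = 0.0648 and 0.193), the second iOPC p5 array (0.0583) or either iOPC p15 array (0.0535 and 0.0518). Its Bbc3 call was lost with the mean of the gene's probes (adjusted p = 0.256) and without both arrays headed iOPC p15 (0.666). Without those arrays the signal table called 2 genes higher and 2 lower, and Sesn2 was then lower in iOPC by 0.50 log2 units (adjusted p = 0.000584).

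Change with passage was asked of the iOPC alone. From p5 to p15, the signal table had 5 p53 targets higher at p15 and 2 lower, beside 32.6% and 30.2% of all genes. Sesn2 was higher at p15 than at p5 by 1.55 ± 0.08 log2 units, Bbc3 by 1.02 ± 0.09, Pmaip1 by 1.00 ± 0.09, Btg2 at least 1.13-fold and Ccng1 by 0.53 ± 0.09. Phlda3 was lower at p15 by 0.73 ± 0.09 and Mdm2 by 0.26 ± 0.08 (adjusted p = 0.0153). The Mdm2 call was lost without the second iOPC p5 array (adjusted p = 0.0666) or the first iOPC p15 array (0.0865), and with the mean of its probes (0.0703). From p15 to p25, 5 were lower at p25 and 1 was higher, beside 38.3% and 33.4% of all genes. Sesn2 was 6.07-fold lower at p25 than at p15, Ccng1 3.49-fold, Bbc3 2.59-fold and Pmaip1 at least 2.51-fold, and Phlda3 was 1.83-fold higher. The Btg2 call (at least 1.05-fold lower, adjusted p = 0.0306) was lost without the first iOPC p15 array (0.264) or the second iOPC p25 array (0.158). Both comparisons rest on the same p15 arrays. Markers of mature oligodendrocytes, which make myelin, also differed between passages, with sums of 10496 to 10561 at p5, 2644 to 2817 at p15 and 33385 to 35605 at p25 in the signal table, beside 12805 to 13281 in OPC and 193 to 240 in PC. Mag and Mog were detected on both p25 arrays and on no p15 array. In the value table these sums were 4298 to 4871, 6674 to 7666 and 11506 to 11875 at the 3 passages.

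Between p25 and p5 the signal table had 5 p53 targets lower at p25 and none higher, beside 29.4% and 26.4% of all genes. Ccng1 was lower by 1.28 ± 0.09 log2 units, Sesn2 by 1.05 ± 0.08, Pmaip1 at least 1.25-fold, Bbc3 by 0.35 ± 0.09 and Mdm2 by 0.29 ± 0.08. The Mdm2 call rests on 1 probe: the other bright probe had 10.22 and 10.19 at p25 and 9.94 and 10.05 at p5, a difference of 0.21 (adjusted p = 0.0449), and the mean of the probes gave -0.042 (adjusted p = 0.693). It was also lost under median scaling (adjusted p = 0.221) and without the second array of p5 (0.0558) or of p25 (0.0789). The Bbc3 call was lost without the first array of p5 (adjusted p = 0.0673) or of p25 (0.0721).

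The value table called none of these 5 differences, and its changes between p25 and p5 were -0.96 ± 0.28 for Bbc3, -0.56 ± 0.20 for Mdm2, -0.54 ± 0.56 for Sesn2, -0.34 ± 0.21 for Ccng1 and 1.58 ± 0.53 for Pmaip1. Those of Bbc3 and Mdm2 have the direction and more than the size of the signal table's, and were called with a variance trend (adjusted p = 0.029 and 0.0404). Pmaip1 has the opposite direction. Between p15 and p5 the value table called Bbc3 lower at p15 (-1.30 ± 0.28, adjusted p = 0.031, beside 6.67% of all genes lower and 3.65% higher), with values of 5.97 and 6.90 at p15 and 7.75 and 7.71 at p5. That call was lost without either PC or OPC array, the first iOPC p5 array or the first iOPC p15 array (adjusted p between 0.0594 and 0.0793). The table called none of the p53 targets between p25 and p15, where 0.123% of all genes were called, or between p25 and p5, where 8.91% were. At an unadjusted p under 0.05 (limma), it would call 0 of the 8 between p25 and p15 and 3 between p25 and p5. Proliferation markers summed to 4742 to 4798, 5397 to 5506 and 1557 to 1585 at p5, p15 and p25 in the signal table, and to 5278 to 6424, 9977 to 10863 and 8074 to 8285 in the value table. The part of the proliferation and myelin markers in the passage differences was not tested.

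Probes of a gene mostly moved together. Fitted probe by probe for iOPC against PC, 15 of the 17 probes fell in the signal table and 15 in the value table, beside 33.5% and 25.2% of all probes (higher in 40% and 29.9% of all probes, and in 0 of these). Those not called in the signal table were both Sesn2 probes, and 2 of the 3 Bbc3 probes were not called in the value table. The 2 bright Mdm2 probes gave log2 changes of -1.72 and -1.74 in the signal table, and the other was detected on both PC arrays and on no iOPC array, so that its level in iOPC has only a bound. The 3 Ccng1 probes gave -1.72, -2.22 and -2.37. The Perp probe, counted among the lower ones, passed the filter only through the PC arrays.

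**Figure D4:**
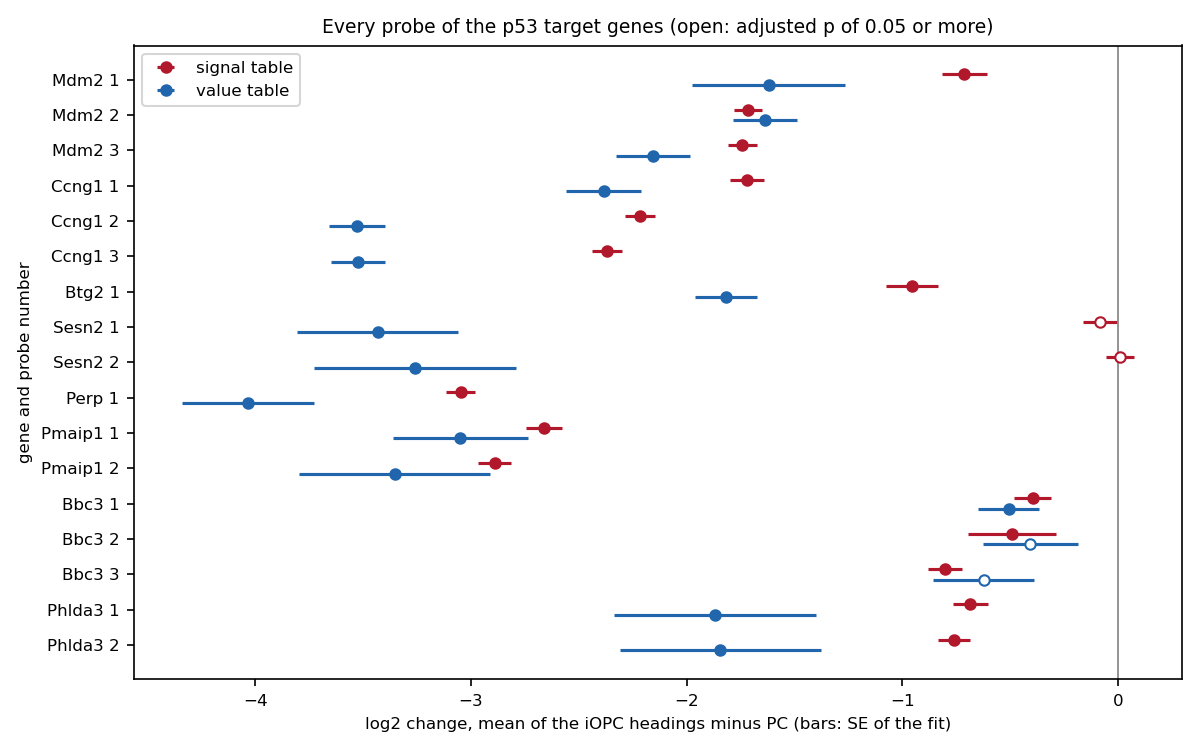
Log2 change of every probe of the p53 targets in iOPC (the mean of the 3 passages) minus PC (x axis), with the SE of the fit as bars, in the signal table (red) and the value table (blue); open points have an adjusted p of 0.05 or more. All points but 1 of the Sesn2 signal points (0.01) lie left of 0, the Perp probe and the dimmest Mdm2 probe were detected on no iOPC array, and both Sesn2 probes differ between the tables by over 3 log2 units.

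The p53 circuit around these genes was then read from 6 lists of related genes. Cdkn1a, which encodes the cyclin-dependent kinase inhibitor p21 and is the best known p53 target of arrest, had log2 signals of 10.00 and 9.81 on iOPC p5 arrays, 10.33 and 10.26 at p15, 9.86 and 9.79 at p25, 9.32 and 9.35 on OPC arrays, and 11.30 and 11.34 on PC arrays. PC lay above all others, and Cdkn1a fell in iOPC by 1.31 ± 0.07 log2 units (adjusted p = 3.71e-08) with a value-table change of -2.11 ± 0.20 (adjusted p = 5.61e-05). Cdkn2a encodes p16 and p19Arf, of which the second blocks Mdm2. It was detected on the iOPC p15 and PC arrays alone, at 9.18 and 9.21 at p15 and 9.90 and 10.01 in PC, against at most 4.43 on the other 6 arrays. The value table's Cdkn2a columns with high values were headed OPC (9.11 and 9.29) and PC (10.16 and 10.26), and the iOPC columns lay between 1.12 and 2.94. Mdm4, the partner of Mdm2, was detected by none of its 3 probes on any array and was not tested.

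Among 13 tested regulators of p53, the signal table called 5 higher and 4 lower in iOPC against PC, with 2 and 4 by the value table. Over all genes 42.2% were higher and 34.1% lower by the signal table, and 33% and 26.8% by the value table, and the same shares stand beside each list that follows. Cdkn2a, the kinase Chek2 (-1.10 and -0.69 log2 units in the signal and value tables) and the p53 phosphatase Ppm1d (-1.06 and -1.43) fell in both, and the acetyltransferase Kat5 (0.57 and 0.99) rose in both. The median was 0.22 in the signal table and -0.37 in the value table, so its sign differs between them. The signal-table counts of this list lie near those shares.

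Other p53 targets were mostly lower in iOPC than in PC. Of 14 targets in arrest and DNA repair, the signal table called 1 higher and 12 lower and the value table had 2 and 9, with medians of -0.79 and -0.84 (34.1% and 26.8% of all genes were lower). The polymerase Polk changed by -2.16 and -2.10, the RNA-binding Zmat3 by -1.26 and -1.84, and the arrest gene Rprm by -1.15 and -5.24. Rprm was detected on only 2 of the iOPC arrays, so its signal-table change averages detected and undetected arrays. Of 11 cell death targets, 1 was higher and 6 lower, with 2 and 7 by the value table (medians -0.23 and -0.97). Fas, a death receptor, changed by -0.64 and -2.88, the Pidd1 scaffold by -0.72 and -1.71 and the nuclease Aen by -0.60 and -1.30, while the inflammatory caspase Casp1 was at least 1.12-fold higher and 2.78 log2 units higher in the value table. The passages differed in the signal table, where Fas changed by -0.13, -1.72 and -0.08 and Pidd1 by -0.50, 0.19 and -1.85 at p5, p15 and p25. Aen changed by -0.77 at p5 and 0.17 at p15 and was at least 1.66-fold lower at p25, where it was not detected. Casp1 was not detected at p25 or in PC. Of 12 targets in metabolism and other roles, 1 was higher and 8 lower, with 0 and 11 by the value table (medians -0.57 and -1.57). These include the lipid transfer protein Pltp (-5.41 and -8.51), the adenylate kinase Ak1 (-2.50 and -3.19), the thiamine transporter Slc19a2 (-2.16 and -2.66) and the epoxide hydrolase Ephx1 (-1.41 and -1.54). Pltp was detected on only 4 of the iOPC arrays.

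Beside Pmaip1 and Bbc3, 10 members of the BCL2 family were tested, of which 1 was higher and 7 were lower by the signal table, with 2 and 5 by the value table (34.1% and 26.8% of all genes were lower, 42.2% and 33% higher). The BAX-like Bok (-3.33 and -4.77) and the BH3-only genes Bid (-1.30 and -2.17) and Bad (-0.66 and -0.80) fell in both tables. By the signal table Bok changed by -4.14 at p5 and -0.93 at p15 and was at least 21.5-fold lower at p25, where it was not detected. Bmf, also BH3-only, was at least 1.68-fold higher in iOPC and 0.71 log2 units higher in the value table. By the signal table Bmf was at least 5.22-fold higher at p25 and was not called at p5 or p15 (adjusted p = 0.0701 and 0.441). By the value table it was 1.62 log2 units higher at p5 and was not called at p15 or p25 (adjusted p = 0.305 and 0.278). For the mean of the passages, the BCL2 list thus holds death-promoting genes on either side, with Bmf called higher at 1 passage of each table. Pro-survival genes were among the lower ones as well: Mcl1 changed by -0.39 and -0.62, and Bcl2l1 by -2.34 in the signal table, without a call in the value table. Of 15 genes of the integrated stress response, the ATF4 pathway that also drives Sesn2, 3 were higher and 11 lower, with 2 and 9 by the value table. Nupr1 (-3.12 and -3.15), the cystine transporter Slc7a11 (-2.47 and -5.85) and Ddit3 (-1.62 and -1.84) fell in both, and the lipoprotein receptor Vldlr (3.24 and 5.27) rose in both. Slc7a11 was detected on only 2 of the iOPC arrays. The medians were -0.54 and -1.35.

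**Figure D5:**
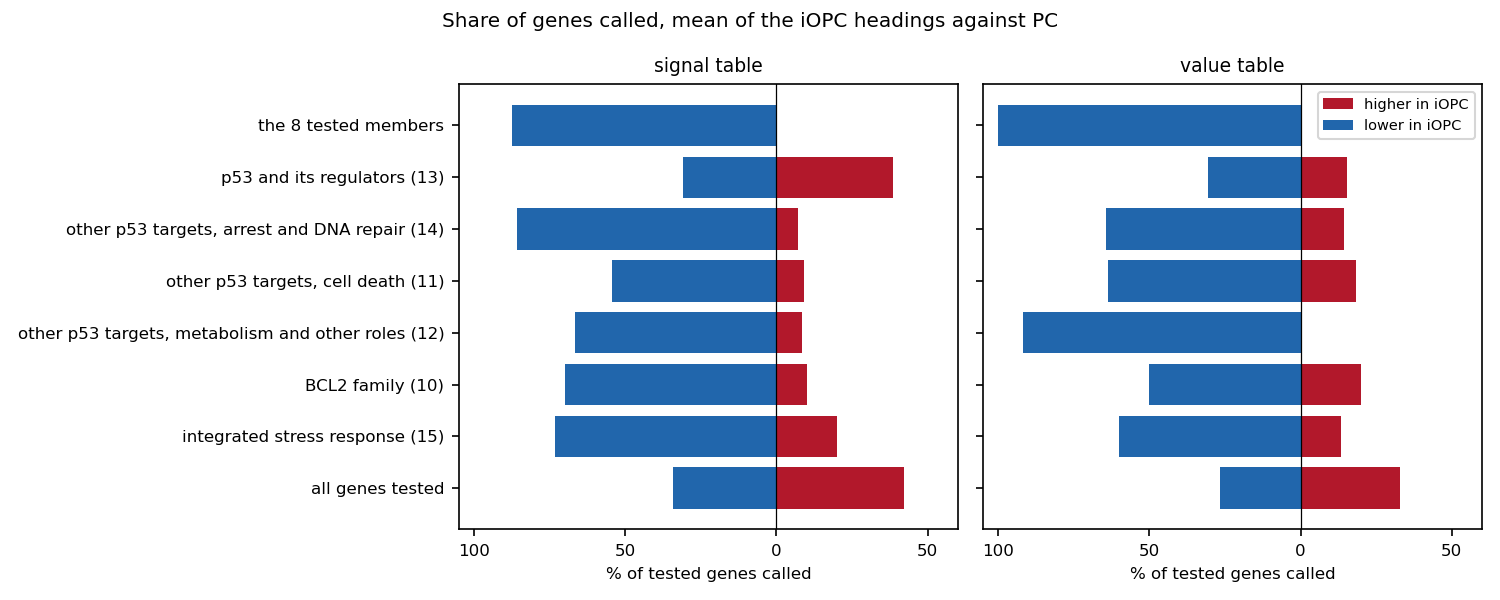
Percent of tested genes called higher (red) or lower (blue) in iOPC (the mean of the 3 passages) against PC, by list, in the signal table (left) and the value table (right), with the number tested in brackets. Lower calls outnumber higher ones in every list but the regulators of p53 in the signal table, while over all genes higher calls (42.2% and 33%) outnumber lower ones (34.1% and 26.8%). The bars of the tested members include Perp, which passed the filter only through the PC arrays.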

How the data were processed

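RNA of 10 arrays was measured, 2 in each of 5 groups taken from the sample titles. The deposited signal table gives a non-normalized intensity for each probe and array, and the deposited detection p-value of each probe stands beside it, per the file headers. The deposited value table holds log2 values that were already normalized between arrays. Per the submitters' processing notes, the tools were BeadStudio 3.2, RMA and lumi, whose roles are not given.

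Intensities were background-corrected and quantile-normalized with neqc of limma 3.58.1 (R 4.3.3, offset 16), with the background taken from the detection p-values, whose steps imply 798 negative controls, and put on the log2 scale. The authors' log2 values were used as they stand. Probes entered the tests if 2 or more arrays had a detection p-value below 0.01. Of a gene with several such probes the one with the highest mean was used, in both tables. Symbols came from the platform annotation, with 23978 probes having 1 symbol and 1719 none. Every adjusted p is from limma's lmFit and eBayes over all 10 arrays (two-sided, 5 residual degrees of freedom, Benjamini-Hochberg over 9778 genes). For a group in which no array detected a probe, folds are lower bounds, taken against the lowest detected value of each array or the probe's own value where that is higher. The number of arrays limits the precision. Fits were tested on simulated data.

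All p53 targets are named. Up to 4 genes of each list are named, those called in both tables with the largest change in the signal table, beside Trp53, Mdm4, Cdkn1a and Cdkn2a in any case. Mcl1 and Bcl2l1 are named outside this rule. The p53 targets, the lists and the naming rule were chosen with earlier results of these data known. Promoter sequences are from RefSeq (GRCm38.p6), with element matches counted by script in Python 3.11.15.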

Additional observations from a re-analysis of the deposited data

Results flagged for a closer look

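Sesn2 differed between passages in its change against PC, and the test of the difference itself passed in the signal table. Between iOPC p15 and p5 the difference was 1.55 log2 units (1.39 and -0.16 against PC, adjusted p = 3.81e-08). Between iOPC p25 and p15 it was -2.60 log2 units (-1.21 and 1.39 against PC, adjusted p = 5.39e-10). The value table called neither difference, and its high Sesn2 columns carry the OPC heading.

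Bbc3 differed between passages in the value table, by -1.30 log2 units between iOPC p15 and p5 (-1.17 and 0.13 against PC, adjusted p = 0.031). In the signal table that difference was 1.02 log2 units, in the opposite direction. The Bbc3 call was lost without either PC array (adjusted p = 0.0594), without either OPC array (adjusted p = 0.0635), without the first iOPC p5 array (adjusted p = 0.0791) or without the first iOPC p15 array, which left -0.84 log2 units (adjusted p = 0.0793).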

How the results depend on the processing

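Mdm2, Ccng1 and Pmaip1 were lower than PC at all 4 headings and called in both tables under each alternative run for those comparisons. So was Perp, but it passed the filter only through the PC arrays and had to differ. Without background correction the falls of dim genes were smaller, at -1.28 log2 units for Perp and -1.56 for Pmaip1 in iOPC against PC. Without both arrays headed iOPC p15, Sesn2 fell in iOPC against PC (-0.68, adjusted p = 2.64e-05) and against OPC (-0.50), and Pmaip1 differed by -0.019 between iOPC and OPC. Under median scaling, Perp between p25 and p15 turned to 0.58 and Btg2 to 0.011, and that scaling moved the median of all genes to 0.12 (p25 minus p15), 0.14 (p25 minus p5) and 0.10 (p25 minus PC), with 3795 genes higher and 2206 lower at p25 than at p5. Leaving out the first iOPC p5 array turned Phlda3 between p15 and p5 to -0.79 in the value table, and leaving out the second gave 1.33. The number of p53 targets called there between p15 and p5 was 0 without the filter on dim probes and 0 when only the compared groups were fitted. Between p25 and p5 it was 2 with a variance trend and 1 without both arrays headed iOPC p15. Leaving out 1 array gave 3 to 5 calls for iOPC against OPC, 0 to 4 between p15 and p5 and 0 to 2 between p25 and p5 in the value table. The lowest and highest counts of calls against PC on leaving out 1 array were 7 and 7 (iOPC) in the signal table and 6 and 8 in the value table. The causes were not tested.

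The replicate number as a block did not pair the arrays: deviations of like-numbered arrays correlated between -0.05 and 0.13 in the signal table and between -0.08 and 0.10 in the value table, over 10 pairs of groups. With the replicate block, 7 p53 targets were called for iOPC against PC in the signal table and 8 in the value table, and no count of called genes changed. For single probes, an alternative chosen after seeing the data, the block gave 15 and 16 calls. With 2 arrays a group and dim signals for Perp, Btg2 and Pmaip1, small differences could not be shown.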
